A study of Homo sapiens with 3 samples.

Results

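The genes described here are LIF and the IL-6 family, 9 genes that encode cytokines, receptors and signal transducers working through the shared receptor gp130. They were taken by symbol from the deposited expression table: the cytokine genes LIF, IL6 and IL11, the receptor genes LIFR, OSMR, IL6R and IL6ST, the transcription factor gene STAT3 and its feedback inhibitor SOCS3. All 9 were found among 55773 gene symbols. Expression was measured by RNA sequencing in 3 lines of HaCaT, a spontaneously immortalised human keratinocyte line, all of which had first been made to express oncogenic HRasG12V. The lines carried in addition THG-1 S264A, in which 1 serine of the protein encoded by TSC22D4 is replaced by alanine, wild-type (WT) THG-1, or an empty vector, and each was represented by 1 library. All were grown in DMEM with fetal bovine serum. The labels do not say whether a line is a clone or a pool of transduced cells, or which promoter drives the transgene.

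Cytokines of this family signal by bringing gp130, the product of IL6ST, together with a ligand-specific chain. LIF uses LIFR, IL-6 and IL-11 use IL6R and IL11RA, and oncostatin M uses OSMR or LIFR. The JAK kinases bound to these receptors phosphorylate STAT3, which enters the nucleus and switches on genes that include SOCS3, whose product in turn blocks gp130. In skin, keratinocytes carry the oncostatin M receptor and answer gp130 cytokines with STAT3 activation during wound repair and inflammation.

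Sequences upstream of the transcription start were taken from RefSeq (GRCh38.p14), where 8 of the 9 genes matched with 11 start sites. The gene without a start site there was LIF, so the bases upstream of LIF were not searched. The table of expression values was made on hg19 per the submitters' processing notes, and the sequences were matched by symbol only. A set of 3 short patterns was searched on both strands in the 250 bases before each start: the NF-kB consensus, the STAT pattern TTCNNNGAA and the AP-1 pattern TGANTCA. They occur in 5.21%, 6.57% and 6.57% of 35116 such windows of the whole genome. Matches to the NF-kB and AP-1 patterns do not overlap each other in the windows shown. Windows are printed 5′ to 3′ with matches in capitals, for the cytokine genes IL6 and IL11, which were low in all 3 lines, and for the start of LIFR that lies beside its antisense gene LIFR-AS1.
IL6, chr7:22726950-22727199, plus strand: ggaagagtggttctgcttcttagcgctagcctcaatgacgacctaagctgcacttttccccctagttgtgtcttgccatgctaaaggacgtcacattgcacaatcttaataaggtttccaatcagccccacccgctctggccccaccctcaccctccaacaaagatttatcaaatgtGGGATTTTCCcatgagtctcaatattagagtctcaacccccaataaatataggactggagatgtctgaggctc
IL11, chr19:55370464-55370713, minus strand: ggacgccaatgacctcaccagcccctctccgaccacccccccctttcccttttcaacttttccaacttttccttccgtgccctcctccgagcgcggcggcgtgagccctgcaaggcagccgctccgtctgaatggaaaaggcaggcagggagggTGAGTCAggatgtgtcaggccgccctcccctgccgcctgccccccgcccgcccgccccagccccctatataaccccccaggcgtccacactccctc
LIFR, chr5:38556647-38556896, minus strand: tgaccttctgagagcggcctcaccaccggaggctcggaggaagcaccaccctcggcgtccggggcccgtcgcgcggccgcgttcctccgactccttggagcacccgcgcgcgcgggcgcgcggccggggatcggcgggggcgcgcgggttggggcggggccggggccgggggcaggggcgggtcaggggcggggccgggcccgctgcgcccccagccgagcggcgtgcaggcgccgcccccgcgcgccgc
The IL6 window holds 1 match to the NF-kB consensus, 73 to 64 bases before the start, and the IL11 window 1 match to the AP-1 pattern, 96 to 90 bases before the start. The LIFR window is 83.6% G and C and holds no match. In GENCODE release 29, on the same build, LIFR-AS1 begins within this window, 140 bases upstream of the LIFR start and on the opposite strand. The STAT pattern occurred once in each of the other 2 LIFR windows, as TTCATCGAA and TTCCTTGAA, and in no window of the other genes searched. The SOCS3 windows do not cover the bases directly upstream of the SOCS3 start in GENCODE release 29, so those bases were not searched. These matches describe the sequence only.

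The libraries held 12733479 to 32055052 reads, with the empty-vector library deepest. These depths and the reads behind each value were recovered from the whole-read steps of the deposited RPKM values (reads divided by gene length and library depth). TSC22D4 itself was at 51.1 RPKM in the S264A line and 64.9 RPKM in the WT line, against 7.98 RPKM in the empty-vector line. All 7 keratinocyte markers examined were at or above 17.4 RPKM in every line. Among markers of other cell types 1 of 8 leukocyte genes (CD68), 1 of 4 endothelial genes (VWF) and 1 of 5 melanocyte genes (MITF) reached 1 RPKM in any line, and none of 6 fibroblast genes did. The summed leukocyte markers were 2.11, 5.62 and 1.25 RPKM in the S264A, WT and empty-vector lines. CD68, which epithelial cells also express, made up 80.4%, 92.7% and 75.2% of these sums. The pan-leukocyte gene PTPRC had 1 read in the S264A line, 0 in the WT line and 1 in the empty-vector line. Of these 23 markers, 7 lay in the same order as LIF, highest in the WT line and lowest in the empty-vector line. They were CD68, MITF, CDH5, COL1A1, CD14, ITGAX and COL1A2. In the S264A, WT and empty-vector lines CD14 had 3, 4 and 6 reads. ITGAX had 1, 4 and 0, and COL1A2 had 2, 2 and 0. An order that rests on so few reads is uncertain. The share of all genes in this order is not given here, so the count has no background. CD68 was at 1.70, 5.21 and 0.941 RPKM in the S264A, WT and empty-vector lines. In the same lines the melanocyte marker MITF was at 0.829, 1.70 and 0.600 RPKM, and the endothelial marker CDH5 at 0.144, 0.343 and 0.0628 RPKM. The other markers did not lie in this order. The endothelial marker VWF was highest in the S264A line, at 1.51, 0.348 and 0.311 RPKM. The melanocyte markers MLANA (0.185, 0.127 and 0.172 RPKM) and PMEL (0.292, 0.242 and 0.376 RPKM) were lowest in the WT line. The part of these markers in the results was not tested.

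The lines had 1 library each, so no p-value could be formed, and variation between cultures cannot be told apart from the effect of a transgene. In bulk RNA, a change in the number of expressing cells and in RNA per cell cannot be told apart either. Intervals beside ratios are exact 95% intervals from the reads and cover counting error only. Genes were called higher or lower when log2((RPKM + 1)/(RPKM + 1)) reached a 2-fold difference, provided that 1 of the 2 libraries had at least 1 RPKM. This scale understates the change of low genes.

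The family split into a cytokine gene, LIF, that was higher in both THG-1 lines than in the empty-vector line, a receptor gene, LIFR, that was lower in both, and OSMR, IL6R, IL6ST, STAT3 and SOCS3, which stayed within a 2-fold range. IL6 and IL11 were below 1 RPKM in all lines. In the WT line against the empty-vector line, 6 of the 9 genes could be compared, of which LIF passed 2-fold upwards and none downwards. Among all 11993 genes compared, 4.53% were higher and 1.54% lower by this rule. In the S264A line against the empty-vector line, 7 could be compared, LIF being higher and LIFR lower, against 2.99% and 0.824% of 12010 genes. In the S264A line against the WT line, 6 could be compared and LIF was lower, against 2.23% of 12069 genes. LIFR entered these comparisons through its level in the empty-vector line, and IL6R through its level in the S264A line. The first comparison called 543 genes higher and 185 lower, and 387 and 360 after upper-quartile scaling of the libraries, which moved the median gene to -0.22 on the log2 scale. The second called 359 and 99, and 258 and 177 after that scaling, with the median gene at -0.16. The upper quartile was taken over genes above 0, and the deepest library had most of these. Median-of-ratios scaling gave 548 and 180 in the first comparison and 353 and 102 in the second.

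**Figure D1:**
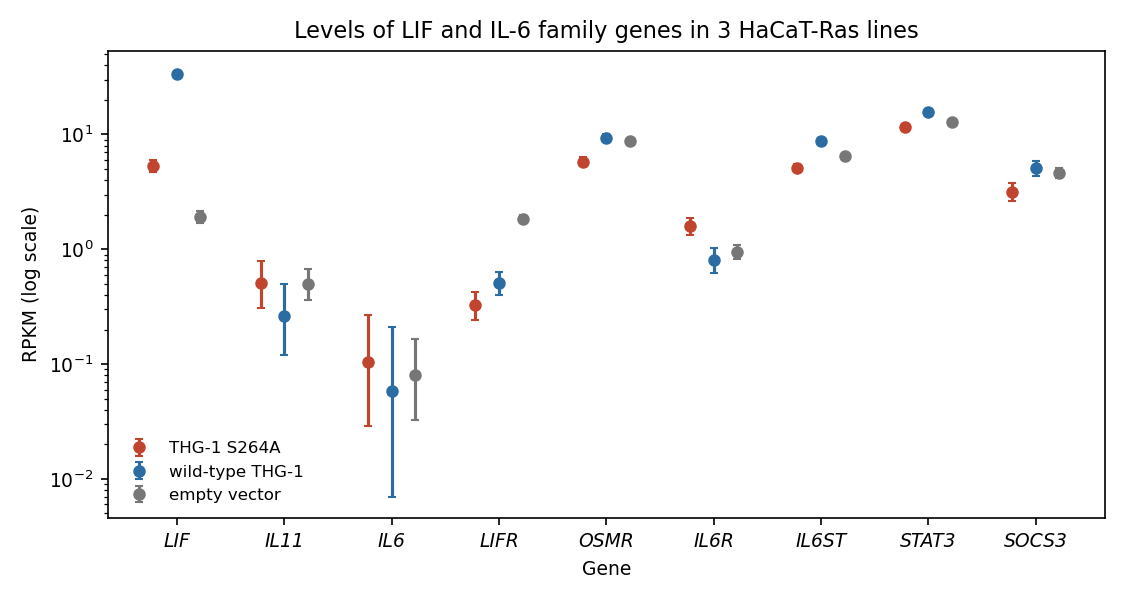
RPKM on a log scale for each of the 9 genes in the S264A, WT and empty-vector lines (1 library each), with bars for the 95% counting interval. LIF stands at 33.4 RPKM in the WT line and LIFR at 0.325 and 0.510 RPKM in the S264A and WT lines, while IL6 and IL11 lie below 1 RPKM throughout.

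LIF, which encodes leukaemia inhibitory factor, was at 5.32 RPKM (296 reads) in the S264A line and 33.4 RPKM (1687 reads) in the WT line, against 1.91 RPKM (243 reads) in the empty-vector line. The 3 counting intervals did not overlap. The WT line held 17.5 times the empty-vector level (15.3 to 20.1), and LIF ranked 19th from the highest among the 11993 genes of that comparison. The S264A line held 2.78 times the empty-vector level (2.34 to 3.31), at rank 265 of 12010. Set directly against each other, the S264A line was 6.28-fold lower than the WT line (5.54 to 7.13), and LIF was the 19th lowest of 12069 genes. After upper-quartile scaling the log2 difference of LIF between S264A and empty vector was 0.97 in place of 1.12, below the 2-fold rule. After median-of-ratios scaling it was 1.11.

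IL11, the cytokine that signals through IL11RA and gp130, was at 0.507 RPKM in the S264A line, 0.265 RPKM in the WT line and 0.502 RPKM in the empty-vector line, from 19, 9 and 43 reads. Its ratio was 1.01 (0.556 to 1.77) for S264A against empty vector and 0.527 (0.226 to 1.10) for WT against empty vector, so that no difference was detectable at this depth. IL6, a classical NF-kB and AP-1 target in many cell types, had 4 reads in the S264A line, 2 in the WT line and 7 in the empty-vector line, or 0.105, 0.0579 and 0.0806 RPKM. Its ratios ranged from 0.719 (0.0729 to 3.78) for WT against empty vector to 1.82 (0.260 to 20.1) for S264A against WT, and no difference was detectable. The IL6 window printed above, with its match to the NF-kB consensus, thus belongs to a gene at the limit of detection in every line. The IL6 exons share 428 bases with AC073072.1 on the opposite strand, which has no row of its own. LIF made up 89.7% of the summed RPKM of these 3 cytokine genes in the S264A line, 99.0% in the WT line and 76.6% in the empty-vector line.

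The 5 genes whose pattern over the 3 libraries was nearest to that of LIF, among 11446 candidates, were S100A8, IL1A, SPRR2D, TNFAIP3 and FST. Distance was Euclidean, between the log2 differences of WT and of S264A from the empty vector on the RPKM + 1 scale. Both differences use the same empty-vector library. S100A8, IL1A and SPRR2D were below 1 RPKM in that library, where this scale understates their ratios most, so their nearness to LIF depends on the scale. TNFAIP3, at 3.71, 21.2 and 1.57 RPKM in the S264A, WT and empty-vector lines, was nearer to the levels of LIF than these 3 genes. S100A8, which encodes a calprotectin subunit, was nearest at a distance of 0.39, with 2.34, 14.0 and 0.186 RPKM in the S264A, WT and empty-vector lines. IL1A, which encodes interleukin-1 alpha, followed at 0.42 with 1.91, 12.3 and 0.485 RPKM in the same lines. SPRR2D, a cornified envelope gene, stood at 0.44, TNFAIP3, the gene of the NF-kB inhibitor A20, at 0.51, and FST, which encodes the activin antagonist follistatin, at 0.60. FST was the only one of the 5 with a level above that of LIF in all lines, at 33.6, 105 and 11.7 RPKM.

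LIFR, the signalling chain for LIF, was lower in both THG-1 lines, with 0.325 RPKM (54 reads) in the S264A line and 0.510 RPKM (77 reads) in the WT line, against 1.85 RPKM (704 reads) in the empty-vector line. Neither interval of a THG-1 line reached that of the empty-vector line. The S264A line was 5.70-fold lower (4.32 to 7.67) and the WT line 3.63-fold lower (2.87 to 4.66). On the RPKM + 1 scale the WT difference was -0.92 and missed the 2-fold rule, while it was -1.68 with a pseudocount of 0.1 RPKM and -1.06 with upper-quartile scaling. The S264A to WT ratio was 0.637 (0.441 to 0.914), a far smaller difference than that of either from the empty vector.

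LIFR-AS1, the antisense gene that begins beside the printed LIFR start, was at 0.0420 RPKM (3 reads) in the S264A line and 0.108 RPKM (7 reads) in the WT line, against 0.330 RPKM (54 reads) in the empty-vector line. It was 7.87-fold lower in S264A (2.55 to 39.4) and 3.06-fold lower in WT (1.39 to 7.98), so that it was lower in both THG-1 lines, as LIFR was. Its order between the THG-1 lines rests on 3 and 7 reads with overlapping intervals and is uncertain. The exons of both genes share 629 bases in GENCODE release 29. The sources used here do not say whether reads were counted by strand, and without strand the reads of the shared bases cannot be told apart.

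The LIF and LIFR transcripts therefore stood in different proportion in each line. The RPKM of LIF was 16.4 times that of LIFR in the S264A line (12.2 to 22.3) and 65.5 times in the WT line (52.1 to 83.4), against 1.03 times in the empty-vector line (0.888 to 1.20). These are ratios of transcript level per length, and protein was not measured.

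OSMR, a receptor chain for oncostatin M, was the most abundant ligand-specific receptor gene, with 5.82 RPKM in the S264A line and 9.36 RPKM in the WT line, against 8.75 RPKM in the empty-vector line. The S264A line was lower than both others, with ratios of 0.621 (0.558 to 0.691) to the WT line and 0.665 (0.605 to 0.729) to the empty-vector line. The WT line had a ratio of 1.07 (0.986 to 1.16) to the empty-vector line, and its log2 difference of 0.09 became -0.15 after upper-quartile scaling. Median-of-ratios scaling left this difference at 0.09. The OSMR exons share 229 bases with those of RICTOR on the opposite strand, which was at 4.17, 3.19 and 3.42 RPKM in the S264A, WT and empty-vector lines. OSMR outnumbered LIFR 17.9 to 1 in the S264A line (13.5 to 24.1) and 18.4 to 1 in the WT line (14.5 to 23.5), against 4.73 to 1 in the empty-vector line (4.34 to 5.16). The OSMR to LIFR proportion thus differed between each THG-1 line and the empty-vector line, and lay within counting error between the THG-1 lines.

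IL6R, the IL-6 binding chain, was at 1.60 RPKM (142 reads) in the S264A line, against 0.805 RPKM (65 reads) in the WT line and 0.949 RPKM (193 reads) in the empty-vector line. Unlike OSMR, IL6ST and LIFR, it was higher in the S264A line than in both others, with ratios of 1.98 (1.47 to 2.70) to the WT line and 1.68 (1.34 to 2.10) to the empty-vector line. The WT to empty-vector ratio was 0.848 (0.630 to 1.13). The difference between S264A and WT, 0.52 on the RPKM + 1 log2 scale, ranked 991st from the highest of 12069 genes.

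IL6ST, which encodes gp130, was at 5.13 RPKM in the S264A line and 8.70 RPKM in the WT line, against 6.55 RPKM in the empty-vector line, and the 3 intervals did not overlap. The ratio was 0.782 (0.715 to 0.855) for S264A and 1.33 (1.23 to 1.43) for WT against empty vector, and 0.589 (0.534 to 0.650) for S264A against WT. Relative to IL6ST, LIFR transcripts stood at 0.0633 in the S264A line and 0.0586 in the WT line, against 0.282 in the empty-vector line. IL6R stood at 0.311 and 0.0925 of IL6ST in the S264A and WT lines, against 0.145 in the empty-vector line. LIFR made up 2.52% and 2.63% of the summed RPKM of the 4 receptor genes in the S264A and WT lines, against 10.2% in the empty-vector line, and that sum was 12.9, 19.4 and 18.1 RPKM in the S264A, WT and empty-vector lines. The IL6ST pseudogene IL6STP1 and the IL6R pseudogene IL6RP1 were listed at 0 in all 3 lines. So was AC008914.1, which shares 797 exon bases with IL6ST on the opposite strand.

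**Figure D2:**
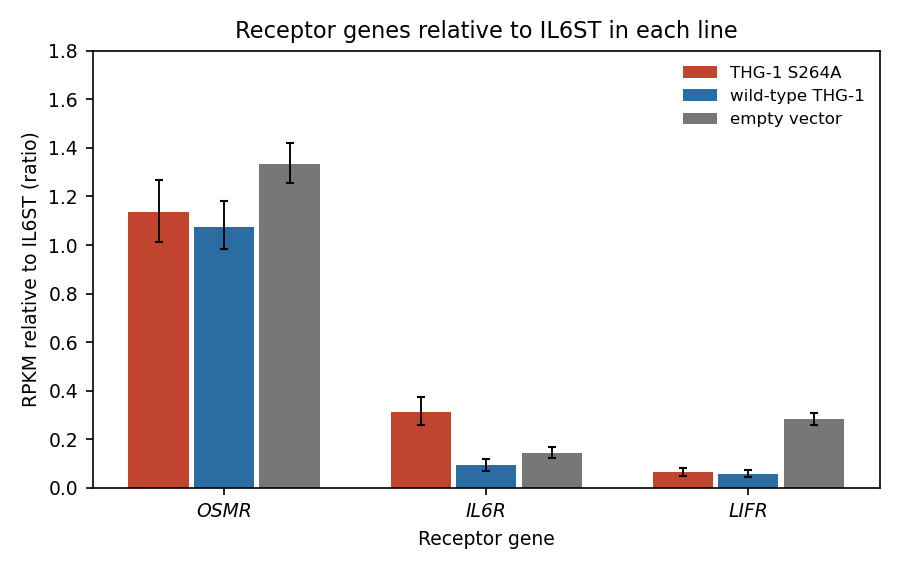
RPKM of OSMR, IL6R and LIFR divided by that of IL6ST within each line, with 95% counting intervals (1 library per line). The LIFR bars are at 0.0633 and 0.0586 in the S264A and WT lines against 0.282 in the empty-vector line, and the IL6R bar is highest, at 0.311, in the S264A line.

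STAT3, the transcription factor activated by gp130, was at 11.5 RPKM in the S264A line and 15.6 RPKM in the WT line, against 12.9 RPKM in the empty-vector line. The ratios to the empty-vector line were 0.890 (0.827 to 0.956) for S264A and 1.21 (1.13 to 1.29) for WT. Upper-quartile scaling brought the WT difference from 0.25 to 0.01 on the log2 scale, and median-of-ratios scaling gave 0.26. SOCS3, the feedback inhibitor whose transcription STAT3 drives, was at 3.16 RPKM (121 reads) in the S264A line and 5.09 RPKM (177 reads) in the WT line, against 4.60 RPKM (402 reads) in the empty-vector line. SOCS3 did not share the difference of LIF, since its WT to empty-vector ratio was 1.11 with an interval of 0.924 to 1.33. The log2 difference of 0.12 became -0.09 after upper-quartile scaling and 0.13 after median-of-ratios scaling. The S264A line was lower than the empty-vector line, at a ratio of 0.688 (0.557 to 0.845), and lower than the WT line, at 0.621 (0.489 to 0.787).

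Set against WT, the S264A line was thus lower in OSMR, IL6ST, STAT3 and SOCS3 alike, with ratios from 0.589 to 0.737. For LIF and these 4 genes the interval lay below 1, that is for 5 of 6 genes compared, while it lay below 1 for 26.3% of all genes compared. That of IL6R lay above 1, as for 28.6% of all genes. For S264A against empty vector, 5 of 7 lay below 1 and 2 above, beside 26.6% and 30.6% of all genes. For WT against empty vector, 1 of 6 lay below 1 and 3 above, beside 32.4% and 32.8%. More reads narrow an interval, so these shares also depend on level. In S264A against WT, on the RPKM + 1 log2 scale, the 4 shared genes lay between -0.41 and -0.66, against 0.02 for the median gene. They stayed negative under every scaling tried, at -0.30 or below. None reached 2-fold. IL6ST was the 672nd and STAT3 the 1518th lowest of 12069 genes.

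**Figure D3:**
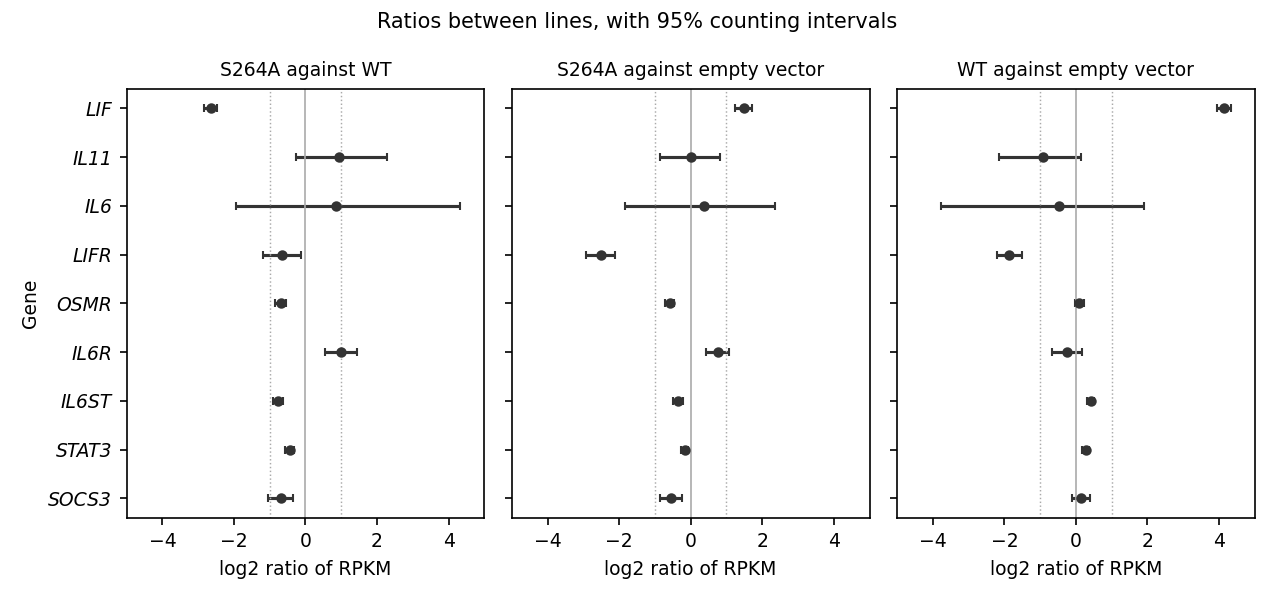
Log2 ratio of RPKM for each of the 9 genes in 3 comparisons, S264A against WT, S264A against empty vector and WT against empty vector (1 library per line). Bars are 95% counting intervals and dotted lines mark a 2-fold difference. LIF lies far above 0 in WT against empty vector, LIFR below it in both comparisons with the empty vector, and the intervals of IL6 and IL11 cross 0 in all 3 panels.

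Ordered by level per length, STAT3 led in the S264A and empty-vector lines. In the WT line LIF led instead, above STAT3. LIF had rank 5 in the empty-vector line, where its interval of 1.68 to 2.17 RPKM overlapped that of LIFR at 1.72 to 1.99 RPKM. In the S264A line LIF stood among the receptor genes, where the intervals of OSMR, LIF and IL6ST overlapped in that order. OSMR and IL6ST, neighbours in the WT line, also overlapped there, but not in the empty-vector line. IL6 was lowest in every line, and in the S264A and WT lines its interval overlapped that of the gene just above it (LIFR in the S264A line and IL11 in the WT line).

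Genes outside the 9 that were assigned beforehand to gp130 signalling were examined in 7 lists with 67 genes. The lists were chosen with earlier results of these data known. Listed genes can also answer other pathways, and which pathway acted on them here was not tested. In the WT line against the empty-vector line, 42 could be compared, of which 7 passed 2-fold upwards and none downwards, beside 4.53% and 1.54% of all genes, with a median log2 difference of 0.21 against -0.01 for all genes. After upper-quartile scaling the median of the lists was -0.03, the median of all genes -0.22 and the number of higher genes 4. In the S264A line against the empty-vector line 2 of 40 were higher and none lower, beside 2.99% and 0.824% of all genes (median 0.13, all genes 0.02). After upper-quartile scaling the median of the lists was -0.06 and that of all genes -0.16, and 1 gene, SOCS2, was lower. In the S264A line against the WT line 2 of 42 were lower and none higher, beside 2.23% and 1.55% of all genes (median -0.10, all genes 0.02). With the libraries scaled to equal sums these medians were 0.01 and 0.12. In both comparisons of S264A the 2 genes past the rule as first counted were the acute-phase genes SAA1 and SAA2. Both were below 1 RPKM in the empty-vector line, so they entered each comparison with it only through the THG-1 line. SOCS1, among the 7 genes higher in WT, likewise entered only through the WT line. A gene that enters in this way can only be called higher. SAA1 and SAA2 are close paralogs, and the sources used here do not say how reads shared by them were counted.

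Among the other gp130 cytokines CLCF1, whose product signals through gp130 and LIFR with the ciliary neurotrophic factor receptor, was the only gene above 1 RPKM. It was at 5.42 RPKM in the S264A line and 9.73 RPKM in the WT line, against 3.50 RPKM in the empty-vector line. Its ratio to the empty-vector line was 2.78 (2.31 to 3.34) in WT and 1.55 (1.25 to 1.91) in S264A, and S264A was at 0.557 (0.452 to 0.685) of WT. CLCF1 thus lay in the same order as LIF with smaller differences. OSM, which encodes oncostatin M, and CNTFR, which encodes the ciliary neurotrophic factor receptor, were listed at 0 in all 3 lines. EBI3, which encodes a subunit of interleukin-27 and interleukin-35 and was singled out after its values were seen, had 1 read in the S264A line and 16 reads in the WT line, against none in the empty-vector line. Against a floor of 3 reads in the empty-vector library, EBI3 was at least 13.4-fold higher in the WT line by the reads as counted, while the 95% counting interval of the ratio began at 9.71. IL11RA, the binding chain for IL-11, was at 0.284 and 0.257 RPKM in the S264A and WT lines, against 0.526 RPKM in the empty-vector line. IL27RA, the interleukin-27 receptor chain, also singled out after its values were seen, was at 0.666 and 1.79 RPKM in the S264A and WT lines, against 0.513 RPKM in the empty-vector line.

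The JAK kinases and adaptors had no gene past 2-fold in any comparison. JAK1, the main kinase of gp130, was at 7.79 RPKM in the S264A line and 6.97 RPKM in the WT line, against 7.34 RPKM in the empty-vector line. JAK2 was at 1.03 RPKM (88 reads) in the S264A line and 0.479 RPKM (37 reads) in the WT line, against 1.13 RPKM (220 reads) in the empty-vector line. Its WT to empty-vector ratio was 0.423 (0.290 to 0.602), which the RPKM + 1 scale gave as -0.53. TYK2 was at 6.45 RPKM in the S264A line, 7.39 RPKM in the WT line and 5.68 RPKM in the empty-vector line. None of the other STAT genes passed 2-fold either.

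Of the negative regulators, SOCS1, a JAK inhibitor also induced by interferon, was at 0.640 RPKM (11 reads) in the S264A line and 1.67 RPKM (26 reads) in the WT line, against 0.255 RPKM (10 reads) in the empty-vector line. WT was 6.55 times the empty-vector level (3.05 to 15.2), while the S264A interval of 0.969 to 6.60 included 1. SOCS1 no longer passed 2-fold in WT after upper-quartile scaling or with a pseudocount of 5 RPKM, and was not compared with a filter at 5 RPKM. SOCS2, singled out after its values were seen, ran the other way, with 1.94 RPKM in the S264A line and 3.42 RPKM in the WT line, against 4.82 RPKM in the empty-vector line. It was 2.49-fold lower in S264A than with empty vector (2.13 to 2.93), or -0.99 on the RPKM + 1 log2 scale, just short of the rule. It passed the rule as lower under 4 alternatives, which were a pseudocount of 0.1 RPKM, the quantile-normalised values, upper-quartile scaling and equal-sum scaling.

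Of 18 STAT3 target genes compared, 3 passed 2-fold upwards in the WT line against empty vector and none downwards, beside 4.53% and 1.54% of all genes, with a median log2 difference of 0.41 against -0.01 for all genes. They were ICAM1, a leukocyte adhesion molecule, VEGFA, an angiogenic growth factor, and BCL2L1, which encodes the survival protein BCL-XL. ICAM1 was at 2.73 RPKM in the S264A line and 5.95 RPKM in the WT line, against 1.47 RPKM in the empty-vector line, and its WT ratio was 4.04 (3.34 to 4.91). VEGFA was at 6.23 and 10.1 RPKM in the S264A and WT lines, against 4.22 RPKM in the empty-vector line. BCL2L1 was at 40.2 and 42.7 RPKM in the S264A and WT lines, against 20.2 RPKM in the empty-vector line, so that its S264A to WT ratio was 0.943 (0.883 to 1.01). After upper-quartile scaling or scaling to equal sums VEGFA and BCL2L1 no longer passed 2-fold. BCL2L1 also fell short with the quantile-normalised values, and ICAM1, VEGFA and BCL2L1 all did with a pseudocount of 5 RPKM. In the S264A line none of the 18 passed 2-fold on the RPKM + 1 scale against either other line. The medians were 0.31 against empty vector and -0.08 against WT, where all genes had 0.02 in each. With a pseudocount of 0.1 RPKM, KLF4 passed as higher against empty vector and ICAM1 as lower against WT. KLF4, singled out after its values were seen, was at 9.71 RPKM in the S264A line and 4.54 RPKM in the empty-vector line. Its ratio was 2.14 (1.89 to 2.43), and 1.44 (1.24 to 1.66) for WT against empty vector.

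Of the 13 acute-phase genes, which liver cells express in answer to IL-6, only SAA1 and SAA2 reached 1 RPKM. SAA1 was at 3.82 RPKM in the S264A line and 223 RPKM in the WT line, against 0.122 RPKM in the empty-vector line, where it rested on 3 reads. SAA2 was at 2.50 and 77.0 RPKM in the S264A and WT lines, against 0.140 RPKM in the empty-vector line. The liver acute-phase genes LBP, FGA, FGB, CRP and ORM1 were listed at 0 in all 3 lines. The rest had few reads. In the S264A, WT and empty-vector lines HAMP had 0, 8 and 0 reads and SERPINA3 2, 5 and 1. HP had 9, 4 and 12 reads, CP 2, 7 and 17, FGG 0, 0 and 1, and A2M 0, 1 and 1. The interval of the WT to empty-vector ratio began at 4.30 for HAMP and 1.41 for SERPINA3. It included 1 for HP, CP, FGG and A2M.

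**Figure D4:**
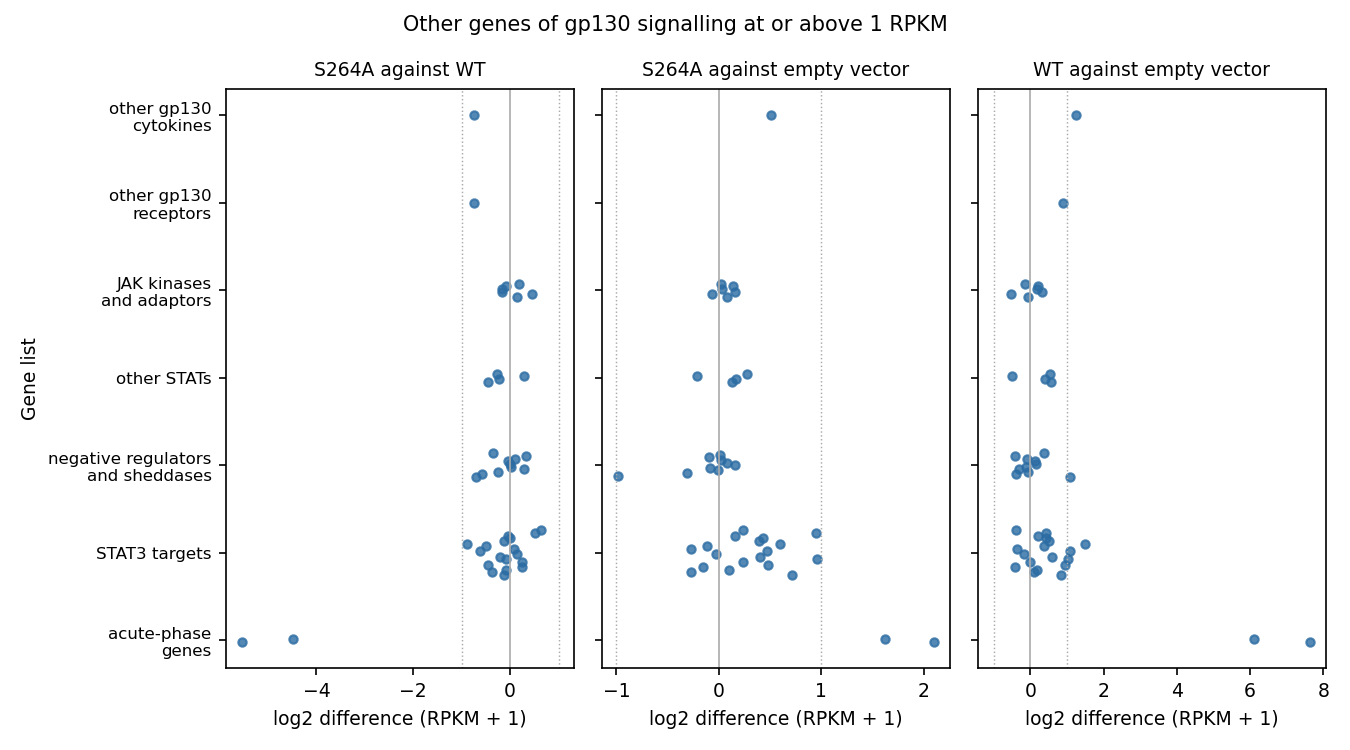
Log2 difference on the RPKM + 1 scale for the other gp130 pathway genes at or above 1 RPKM, by list, in S264A against WT, S264A against empty vector and WT against empty vector (1 library per line). Each point is a gene, dotted lines mark a 2-fold difference, and the horizontal scale differs between panels. Most genes lie within 2-fold, and the outlying acute-phase points are SAA1 and SAA2.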

How the data were processed

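Libraries of total RNA were sequenced on an Illumina NextSeq500, 1 per line, per the labels' protocols. The authors deposited, per the file headers, an RPKM column per library and a second, normalised column, which the values show to be RPKM quantile-normalised over the 3 libraries. The submitters' processing notes give hg19 as the genome build. Nothing in the sources used here gives the aligner, counter, annotation, library selection or strandedness. RPKM already divides by depth, so a few abundant genes can shift all others.

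Whole reads (within 0.001) were recovered for 25997 of 25998 rows above 0. Depth came from single-exon genes, and lengths from GENCODE release 29 chose among the lengths that gave whole reads. Depths were 14022885 (S264A), 12733479 (WT) and 32055052 (empty vector). The steps were tested on simulated data. For 234 symbols with several rows, the most abundant row was used. Ratios carry Clopper-Pearson intervals and levels exact Poisson intervals, both at 95%, computed with Python 3.11.15 and SciPy 1.17.1. Reads are not independent molecules. Alternatives were pseudocounts, filters, the normalised columns and 3 scalings. The genes, lists and rules were chosen with earlier results of these data known. Named genes were the 9 genes, listed genes past 2-fold in any comparison, JAK1, JAK2, TYK2, OSM, IL11RA, CLCF1 and CNTFR, and the 5 genes nearest to LIF. EBI3, IL27RA, SOCS2 and KLF4 were added after their values were seen. The acute-phase genes below 1 RPKM were also named outside this rule.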

Additional observations from a re-analysis of the deposited data

How the results depend on the processing

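No paired analysis was possible because each line has 1 library, and for the same reason no library could be left out. Of 48 counts of genes past 2-fold recomputed under 8 alternatives, 37 stayed within 1.5 times of the reported count. For the 9 genes in WT against empty vector, a pseudocount of 0.1 RPKM and upper-quartile scaling each gave 2 (LIF and LIFR) in place of 1. In S264A against empty vector the count of 2 became 0 with a pseudocount of 5 RPKM, 1 with a filter at 5 RPKM (LIF) and 1 with upper-quartile scaling (LIFR). For the other pathway genes, the 7 in WT against empty vector became 2 with a pseudocount of 5 RPKM and 4 with upper-quartile scaling. The 2 in S264A against empty vector became 4 with a pseudocount of 0.1 RPKM, 0 with a pseudocount of 5 RPKM and 0 with a filter at 5 RPKM, and the 2 in S264A against WT became 5 with a pseudocount of 0.1 RPKM. Median-of-ratios scaling changed none of these counts of the 9 genes or of the other pathway genes. Larger pseudocounts and filters act on low genes by construction. No difference past 2-fold changed sign. Of the 27 differences of single members, 3 changed sign under at least 1 scaling, all of them within 2-fold (OSMR and SOCS3 in WT against empty vector, IL11 in S264A against empty vector). Depth limits IL6 and IL11, for which only large differences could have been seen.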
